A study of Mus musculus with 12 samples.

Results

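Brain capillaries are built by endothelial cells and wrapped by mural cells, and 39 genes that mark these cells were followed here across the hippocampus and the cerebellum of Syt14 knockout and wild-type mice. The genes were taken as the rows of both deposited count tables whose Ensembl identifier belongs to 1 of 39 given symbols, which found all 39 among 54446 gene rows. They comprise 29 endothelial and 10 mural genes, 8 of the latter marking pericytes and 2 smooth muscle.

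Poly(A) RNA of the hippocampus and the cerebellum was sequenced from 3 Syt14-/- knockout mice and 3 Syt14+/+ wild-type mice, in a study of mood and motor coordination. Each animal gave both tissues, so 6 animals gave 12 libraries in 4 groups of 3: knockout hippocampus, wild-type hippocampus, knockout cerebellum and wild-type cerebellum. No treatment is labelled. The labels give no age, sex or strain background, and they do not name the altered exon. The replicates are different animals, so the spread within a group is a spread between animals.

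Brain endothelial cells differ from those of other organs in that tight junctions seal the gaps between them, carriers move glucose, amino acids and lipids across them, and efflux pumps return drugs to the blood. This blood-brain barrier depends on signals from pericytes, which sit in the vessel's basement membrane, and on Wnt ligands made by neural cells. Growth and maintenance of the vessels are set by vascular endothelial growth factor, angiopoietin, transforming growth factor beta and Notch signals.

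Library totals lay between 24355572 and 34971359 counts, and 3.76 to 4.52% of them came from mitochondrial transcripts. Levels below are CPM, a gene's counts relative to its library's total, scaled by TMM factors, which correct for differences in library composition, over all 12 libraries. Syt14 itself held 28.9, 27.9 and 30.5 CPM in the knockout hippocampus and 38.6, 38.9 and 38.1 CPM in wild type, and 30.5, 30.7 and 30.3 against 33.8, 33.7 and 38.3 CPM in the cerebellum. Every knockout library was thus below every wild-type library of its tissue, while most of the Syt14 RNA was still counted. On the log2 scale the knockout differed by -0.39 ± 0.06 (SE) in hippocampus and by -0.20 ± 0.06 in cerebellum. Neither difference passed the test across all genes (edgeR adjusted p = 0.686 and 0.644). Counts over the whole gene do not show whether the altered part is present.

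Marker genes of each labelled tissue were in place: 8 cerebellar neuron markers summed to between 5327 and 5973 CPM in the cerebellum against 172.6 to 216.5 CPM in the hippocampus, and 6 hippocampal neuron markers to between 835.5 and 897.4 CPM in the hippocampus against 275.2 to 304.5 CPM in the cerebellum. Some libraries differed in neighbouring tissue. The 10 choroid plexus markers summed to 27.9 CPM in cerebellum knockout replicate 3 and to 987.7 to 2755 CPM in the other cerebellum libraries. The 10 brainstem neuron markers summed to 21.1 and 41.3 CPM in cerebellum knockout replicates 1 and 2 and to at most 6.57 CPM in the rest, and the 15 meninges and fibroblast markers to 208.9 CPM in hippocampus wild-type replicate 2 against 93.6 to 115.2 CPM in the other hippocampus libraries. In whole tissue, fewer vessel cells and less RNA per vessel cell cannot be told apart.

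Promoter windows of RefSeq on GRCm38.p6, reaching from 250 bases before to 50 bases after a start, were given for 27 of the 39 genes, in 35 windows. ETS factors, a family that includes the member Erg, are known regulators of endothelial genes. Below are the 250 bases before the start of 5 of the 10 genes with the smallest hippocampal p, shown to let their ETS letters be read beside the levels that follow: Eng (chr2:32646345-32646594, plus strand), Itm2a (chrX:107403361-107403610, minus strand), Slco1a4 (chr6:141856221-141856470, minus strand), Cldn5 (chr16:18776597-18776846, plus strand) and Kdr (chr5:75978456-75978705, minus strand). Each runs 5′ to 3′ along its gene, and capitals mark CCGGAA or AGGAAG on either strand.
Eng: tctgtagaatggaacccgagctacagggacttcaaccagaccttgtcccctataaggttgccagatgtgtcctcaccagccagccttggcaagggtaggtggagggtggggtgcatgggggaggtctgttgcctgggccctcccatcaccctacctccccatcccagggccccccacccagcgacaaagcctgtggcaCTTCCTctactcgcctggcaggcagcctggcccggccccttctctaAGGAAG
Itm2a: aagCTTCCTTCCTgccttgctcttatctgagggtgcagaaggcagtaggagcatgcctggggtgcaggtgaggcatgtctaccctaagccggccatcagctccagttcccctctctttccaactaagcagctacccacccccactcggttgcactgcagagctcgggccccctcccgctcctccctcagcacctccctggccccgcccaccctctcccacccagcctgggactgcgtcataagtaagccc
Slco1a4: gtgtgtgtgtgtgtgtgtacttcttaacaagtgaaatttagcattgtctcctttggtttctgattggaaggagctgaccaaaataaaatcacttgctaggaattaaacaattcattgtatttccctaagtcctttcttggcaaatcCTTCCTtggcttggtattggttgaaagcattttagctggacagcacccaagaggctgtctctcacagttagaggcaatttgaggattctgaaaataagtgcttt
Cldn5: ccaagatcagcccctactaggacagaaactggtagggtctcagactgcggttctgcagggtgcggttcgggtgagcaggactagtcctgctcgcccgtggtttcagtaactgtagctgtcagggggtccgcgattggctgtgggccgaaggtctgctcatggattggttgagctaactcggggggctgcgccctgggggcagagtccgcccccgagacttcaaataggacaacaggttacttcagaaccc
Kdr: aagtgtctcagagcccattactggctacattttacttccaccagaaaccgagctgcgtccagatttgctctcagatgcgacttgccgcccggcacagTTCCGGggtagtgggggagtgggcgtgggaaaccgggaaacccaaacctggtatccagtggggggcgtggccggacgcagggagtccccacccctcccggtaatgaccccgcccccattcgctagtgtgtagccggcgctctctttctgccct
The Eng sequence holds 2 such matches, the later of which ends at its last base, and the 2 in Itm2a overlap each other. Slco1a4 and Kdr hold 1 each. None is present in that of Cldn5. Of the 10 genes 8 had exactly 1 window. The 3 of these not printed, to save space, were Pltp, Vtn and Rgs5. They held 0 matches in the same 250 bases, so 4 of 8 held a match. The share of all RefSeq windows with a match in these 250 bases was not counted.

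Over all 35 member windows the ETS letters were found in 48.6%, against 45.2% of the 32851 RefSeq windows. The SOX letters ACAAT or ACAAAG were found in 34.3% against 42.9%, and the forkhead letters GTAAACA in 2.86% against 3.65%. The GC box GGGCGG was found in 45.7% against 35.7%, and the CArG box, bound by serum response factor, in 0 windows against 1.63%. Both strands were searched, and matches of the same motif may overlap. A match is a run of letters and was not tested as a binding site.

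All 39 genes had counts in every library. Per kilobase of annotated exon, the wild-type hippocampus held most Vtn at 32.9 CPM, the pericyte gene for the matrix protein vitronectin, followed by the endothelial membrane protein gene Itm2a at 26.0 and the pericyte gene Rgs5, which encodes a regulator of G protein signalling, at 25.6. Next came the transporter genes Pltp at 22.2, Slc7a5 and Slc2a1 at 20.7 each, and the tight junction gene Cldn5 at 18.7 CPM per kilobase. Within the other roles the highest were Eng among receptors at 5.76, Sox18 among transcription factors at 4.83 and Acta2 in smooth muscle at 3.22. At the low end stood Anpep at 0.942, Emcn at 0.635 and Tagln at 0.151 CPM per kilobase. Tagln, a smooth muscle actin-binding protein gene, held only 0.141 to 0.593 CPM in any library and fell under the count filter in both genotype comparisons.

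Summed over the 29 endothelial genes, the hippocampus held 808.8, 877.9 and 838.3 CPM in knockouts and 940.8, 952.0 and 978.4 CPM in wild type. In the cerebellum the same sums were 1047, 1053 and 1045 CPM in knockouts and 1055, 1062 and 1005 CPM in wild type. The hippocampal groups did not overlap, and the cerebellar groups did. Summed over the 10 mural genes, the hippocampus held 223.5, 237.7 and 238.6 CPM in knockouts against 248.2, 275.0 and 268.7 CPM in wild type, again without overlap, and the cerebellum 325.0, 296.8 and 321.9 against 297.6, 306.7 and 275.4 CPM. Sums are led by the most abundant genes, so single genes follow.

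**Figure D1:**
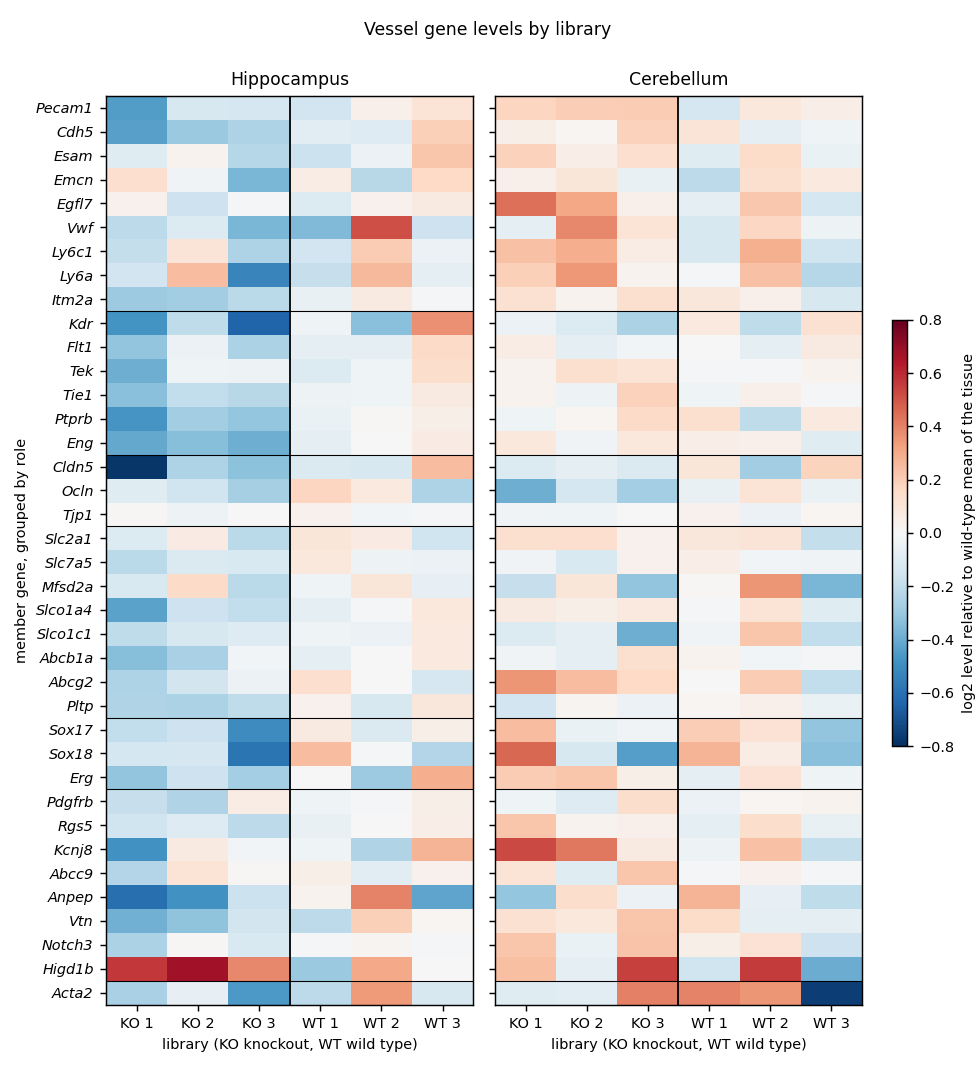
Level of each of 38 vessel genes (rows, grouped by role) in each library (columns), as log2 difference from the wild-type mean of its tissue, from -0.8 (blue) to 0.8 (red). In the hippocampus the knockout columns are mostly blue, with medians of -0.24, -0.13 and -0.21, while the cerebellar columns show both colours.

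The first comparison asked how vessel genes stood in the knockout hippocampus. There 37 of the 38 genes tested lay below wild type and 1 above, with a median log2 difference of -0.18 against 0.0017 over all 17693 genes tested, of which 49.2% lay below 0. No gene of any kind was called by edgeR (0% of genes, adjusted p under 0.05), and no member was called by edgeR or limma-voom, while DESeq2 called 1, Ptprb (adjusted p = 0.0247). At an unadjusted p under 0.05 stood 15 members, each lower, where 1.77% of all genes were lower at that level. The 3 knockout libraries all lay below the 3 wild-type libraries for 12 members, against 5.73% of all genes, and all above for 1 member, against 4.49%. The members were chosen with earlier results of these data known. The counts of members here and below therefore describe the list and are not independent support for a difference.

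The 6 growth factor receptors and their partners had the lowest median of the roles, -0.29, with 6 of 6 below 0 and 5 at an unadjusted p under 0.05. Ptprb encodes the vascular endothelial phosphatase that restrains the receptor Tek. Its level was 44.5, 50.8 and 49.7 CPM in the knockouts and 59.5, 62.0 and 63.6 CPM in wild type, without overlap. That put the knockout at 79.0% of wild type, a log2 difference of -0.34 ± 0.06 (SE), and Ptprb ranked 2 of all genes by unadjusted edgeR p (0.000125, adjusted 0.792).

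Eng encodes endoglin, a co-receptor for transforming growth factor beta family ligands. Its level was 17.5, 18.4 and 17.8 CPM in knockouts against 22.1, 23.4 and 24.4 CPM in wild type, again without overlap, at 77.5% of wild type (log2 -0.37 ± 0.08). Kdr, the main signalling receptor for vascular endothelial growth factor, held 14.8, 17.8 and 13.2 CPM in knockouts and 20.0, 16.3 and 26.4 CPM in wild type. Here the groups overlapped, because wild-type replicate 2 stood under knockout replicate 2, and the log2 difference of -0.44 ± 0.16 became -0.24 without wild-type replicate 3.

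The other 3 receptors differed less. Tie1, an orphan receptor that partners Tek, held 10.5, 11.5 and 11.3 against 12.8, 12.9 and 13.9 CPM, without overlap (log2 -0.24 ± 0.10). Flt1, which binds the same growth factor as Kdr and acts largely as a trap, held 60.6, 73.0 and 63.2 against 71.7, 71.2 and 83.8 CPM, with overlap (-0.19 ± 0.08). For Tek, the angiopoietin receptor, the log2 difference was -0.13 ± 0.11, with a 95% interval of -0.38 to 0.11.

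Endothelial surface and adhesion genes lay lower in 9 of 9 cases, with a median of -0.11 and 2 at an unadjusted p under 0.05. Itm2a held 36.9, 37.4 and 38.99 CPM in knockouts and 43.5, 47.5 and 44.9 CPM in wild type, which did not overlap (84.05% of wild type, log2 -0.25 ± 0.06). Cdh5, the cadherin of endothelial adherens junctions, held 9.68, 10.7 and 11.02 against 12.3, 12.2 and 14.9 CPM, also without overlap (-0.32 ± 0.11). Pecam1, a junctional adhesion molecule, overlapped between groups at 13.3, 16.5 and 16.4 against 16.2, 18.6 and 19.5 CPM (-0.22 ± 0.11).

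The remaining surface genes showed smaller or less even differences. Vwf, the clotting factor gene of larger vessels, had a log2 difference of -0.27 ± 0.18, with wild-type replicate 2 at 33.6 CPM against 18.2 to 21.8 CPM in the other 5 hippocampus libraries. The secreted vessel factor gene Egfl7 differed by -0.04 ± 0.09, the adhesion gene Esam by -0.09 ± 0.12 and the sialomucin gene Emcn by -0.07 ± 0.19. Ly6c1 and Ly6a, which encode surface proteins of a family of related genes that may share reads, differed by -0.10 ± 0.12 and -0.11 ± 0.18.

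Of the tight junction genes, Cldn5, the claudin that seals brain capillaries, lay lowest relative to wild type. It held 15.3, 22.1 and 20.9 CPM in knockouts and 24.2, 24.0 and 31.2 CPM in wild type, without overlap, at 74.3% of wild type (log2 -0.43 ± 0.13). Occludin (Ocln) held 14.7, 14.1 and 13.1 against 17.7, 16.6 and 13.2 CPM, where wild-type replicate 3 came close to the knockouts (-0.17 ± 0.11). Tjp1 encodes the junctional scaffold ZO-1, which neurons and glia also make, and its log2 difference was -0.00 ± 0.04, with a 95% interval of -0.09 to 0.09.

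All 8 transporter genes lay below 0, with a median of -0.14 and 5 at an unadjusted p under 0.05. Slco1a4, an organic anion carrier of brain capillaries, held 42.8, 51.4 and 50.2 CPM in knockouts and 54.6, 57.2 and 61.1 CPM in wild type, without overlap (84.2%, log2 -0.25 ± 0.07). Pltp, which transfers phospholipids between lipoproteins, held 48.2, 47.7 and 49.4 against 58.3, 52.1 and 60.6 CPM, without overlap (85.7%, -0.22 ± 0.06). The large amino acid carrier gene Slc7a5 (66.1, 70.8 and 70.4 against 81.3, 74.8 and 74.4 CPM) and the thyroid hormone carrier gene Slco1c1 (45.7, 48.3 and 49.1 against 51.6, 51.1 and 55.6 CPM) did not overlap either, at -0.14 ± 0.05 and -0.13 ± 0.06.

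The efflux pump genes Abcb1a and Abcg2 overlapped between groups, at -0.19 ± 0.08 and -0.14 ± 0.09. Abcb1a has a close paralog, so its reads may be split. The glucose carrier gene Slc2a1 (-0.07 ± 0.08) and the lipid carrier gene Mfsd2a (-0.04 ± 0.11) differed by less than their SE. The 3 transcription factor genes lay close to each other, with Sox17 at -0.27 ± 0.13, Sox18 at -0.27 ± 0.16 (7.02, 7.08 and 5.18 against 9.19, 7.68 and 6.61 CPM) and Erg at -0.26 ± 0.16. None of them reached an unadjusted p under 0.05, and only the Sox17 groups did not overlap.

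Pericyte genes were uneven, with 7 of 8 below 0. Vtn held 50.8, 53.2 and 59.9 CPM in knockouts and 57.5, 75.7 and 67.1 CPM in wild type, with wild-type replicate 1 inside the knockout range (82.5%, log2 -0.28 ± 0.09, and -0.18 without wild-type replicate 2). Rgs5 held 104, 108 and 100 against 112, 117 and 120 CPM, without overlap (90.3%, -0.15 ± 0.05). The peptidase gene Anpep had a log2 difference of -0.43 ± 0.23 at 2.49 to 4.98 CPM.

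Other pericyte genes lay near wild type. Pdgfrb, the receptor through which endothelial cells recruit pericytes, differed by -0.10 ± 0.08, the mural Notch receptor gene Notch3 by -0.11 ± 0.08, and the subunits of the pericyte potassium channel, Kcnj8 and Abcc9, by -0.12 ± 0.21 and -0.02 ± 0.11. Higd1b was the single member above wild type, at 1.87, 2.01 and 1.65 CPM against 1.03, 1.56 and 1.26 CPM, without overlap but at a low level (0.53 ± 0.26). The smooth muscle actin gene Acta2 overlapped, at 5.82, 6.66 and 5.08 against 6.04, 8.83 and 6.37 CPM (-0.26 ± 0.17). The median was -0.19 over 29 endothelial and -0.12 over 9 mural genes.

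**Figure D2:**
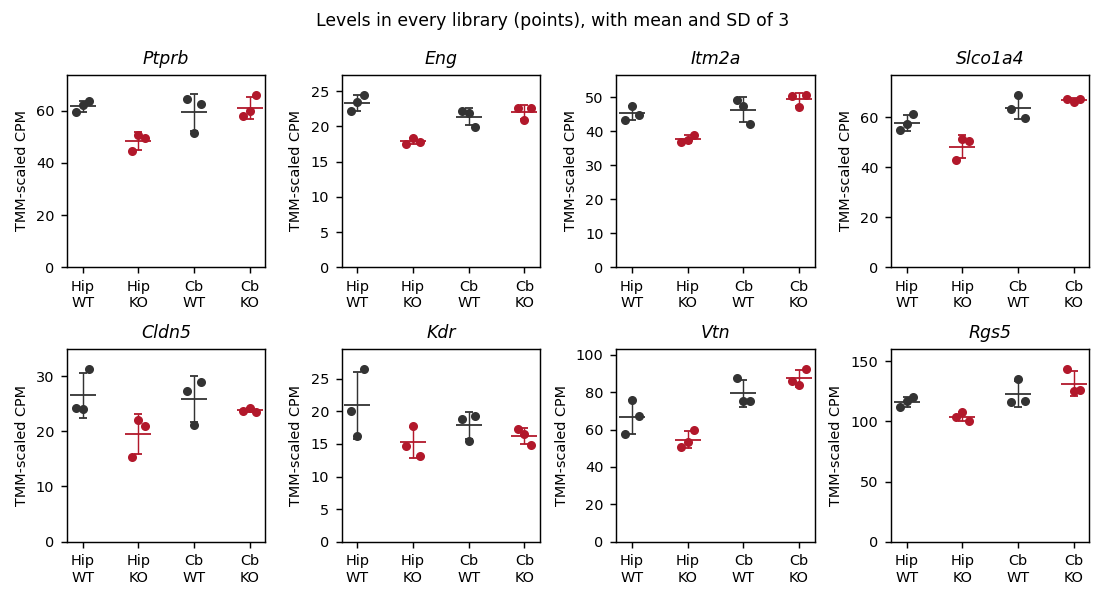
Levels of 8 vessel genes in TMM-scaled CPM (vertical axes from 0) in each library, for wild type (grey) and knockout (red) of hippocampus (Hip) and cerebellum (Cb), where points are libraries and bars the mean and SD of 3. Hippocampal knockouts lie below wild type without overlap for Ptprb, Eng, Itm2a, Slco1a4, Cldn5 and Rgs5, and in the cerebellum all 8 genes overlap.

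All 3 knockout animals lay below wild type, though not evenly. Knockout replicate 1 was the lowest of the 6 hippocampus libraries for 20 of 38 genes, replicate 3 for 13 and replicate 2 for 4, while wild-type replicate 3 was the highest for 19. Relative to the wild-type mean, the median gene lay at -0.24, -0.13 and -0.21 (log2) in knockout replicates 1, 2 and 3. Without knockout replicate 1 the median over the members was -0.15, and 9 rather than 15 members stood at an unadjusted p under 0.05.

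Other cell types were compared by the same fit. Marker genes of neurons (median log2 difference -0.04 over 8 genes), astrocytes (-0.0007 over 8), oligodendrocytes (-0.03 over 7) and microglia (-0.03 over 11) lay near 0 in the knockout hippocampus. Of the oligodendrocyte markers 7 of 7 were nonetheless below 0. Ependyma markers lay below 0 in 4 of 5 cases (-0.23) and choroid plexus markers in 3 of 8 tested (0.03). Brainstem neuron markers did so in 3 of 4 tested (-0.28), at a sum of at most 4.23 CPM in this tissue. Markers of meninges and fibroblasts moved further than the vessel genes, with 13 of 14 below 0 and a median of -0.61, and the 4 tested markers of perivascular macrophages were all below 0 at a median of -0.38. The 15 meninges markers were counted in every library, and their sum ran from 93.6 to 100.2 CPM in knockouts and from 103.8 to 208.9 CPM in wild type.

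With the mean log2 level of those markers as a covariate in the edgeR fit, 36 of 38 vessel genes lay below 0 at a median of -0.14, and the value for Vtn came to -0.13 and that for Kdr to -0.71. In that fit 12 rather than 15 members stood at an unadjusted p under 0.05. The summed meninges markers were lower in every knockout than in every wild-type hippocampus library. The covariate is a mean of log2 levels and not this sum. Of the 14 markers tested 13 lay below 0, though only 1 without overlap between groups. Meninges RNA and genotype thus went together, and this fit cannot tell them apart. Without wild-type replicate 2, the library with most meninges RNA, 33 of 38 lay below 0 at a median of -0.17. Of the 7 macrophage markers 6 were counted in every library, and their sum was 3.41 to 5.08 CPM in knockouts and 4.13 to 8.33 CPM in wild type. The 7 blood markers had a median of -0.08 over 5 tested genes, and 8 genes induced by activity or dissociation a median of 0.33, all 8 above 0. The part of ependyma, brainstem, macrophage, blood and activity genes in the vessel result was not tested.

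**Figure D3:**
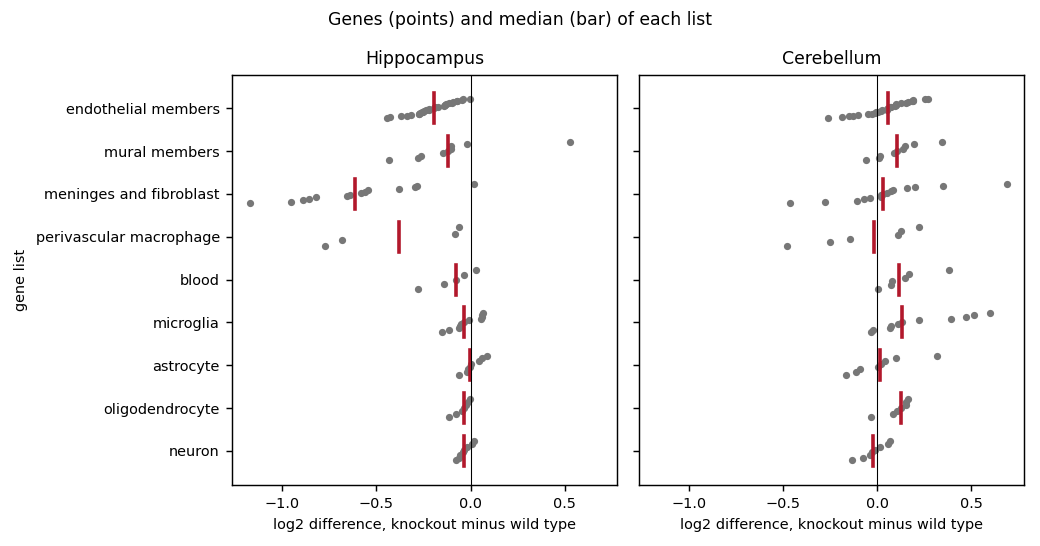
Log2 difference between knockout and wild type (horizontal axis) for every tested gene (points) of the vessel lists and of other cell type lists (rows), with each list's median as a red bar, in hippocampus (left) and cerebellum (right). In the hippocampus the endothelial median is -0.19, the mural median -0.12 and the meninges median -0.61, while neurons and glia lie near 0.

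In the cerebellum the same genes leaned slightly the other way, with 28 of 38 above wild type (51.0% of all genes), 10 below and a median log2 difference of 0.07 against 0.0025 over all genes. Of 17733 genes 2 were called by edgeR (0.0113%), Cck and Fosl2, neither of them a vessel gene. No member was called by edgeR, DESeq2 or limma-voom. At an unadjusted p under 0.05 stood 2 members that were higher, against 3.85% of all genes, and 1 that was lower, against 2.92%. Groups did not overlap for 1 higher and 1 lower member, where the shares of all genes were 5.83% and 6.24%. The animals of the genotypes were mixed. Relative to the wild-type mean, the median gene lay at 0.07, 0.02 and 0.06 (log2) in knockout replicates 1, 2 and 3. It lay at -0.004, 0.09 and -0.06 in wild-type replicates 1, 2 and 3. Wild-type replicate 3 was the lowest cerebellum library for 15 of 38 genes. Without it, 26 of 39 members lay above 0 at a median of 0.03.

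The lower gene was Ocln, whose product spans the tight junction. Its cerebellar level was 23.5, 28.1 and 25.6 CPM in knockouts and 29.7, 33.4 and 29.8 CPM in wild type, without overlap (83.5%, log2 -0.26 ± 0.08, edgeR adjusted p = 0.644). All 3 tight junction genes lay below 0 in this tissue too, Cldn5 at -0.10 ± 0.10 and Tjp1 at -0.02 ± 0.04. Pecam1 was the higher one without overlap, at 21.9, 22.2 and 22.3 CPM against 17.7, 20.6 and 20.1 CPM (114%, 0.19 ± 0.07).

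Abcg2 held 17.1, 15.9 and 15 CPM in knockouts and 13.4, 15.4 and 11.7 CPM in wild type, with wild-type replicate 2 among the knockouts (119%, 0.25 ± 0.11, and 0.16 without wild-type replicate 3). Vtn held 85.9, 83.9 and 92.1 against 87.7, 75.1 and 75.1 CPM, with wild-type replicate 1 inside the knockout range (111%, 0.15 ± 0.07, and 0.23 without wild-type replicate 1). Egfl7 held 17.1, 15.7 and 13.01 against 11.99, 14.7 and 11.5 CPM, also with overlap (120%, 0.27 ± 0.13, and 0.18 without knockout replicate 1). Reads of Egfl7 overlap a predicted gene on its strand and the gene Agpat2 on the other, and the strand setting used was not given in the sources used here.

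By role, the 9 surface genes were all above 0 in the cerebellum (median 0.15), as were the 3 transcription factors (0.05), while receptors (4 of 6 above) and transporters (4 of 8 above) divided. Pericyte genes were above 0 in 7 of 8 cases, with a median of 0.12. Of the 10 hippocampal genes named above, Ptprb stood at 0.05 ± 0.08 in the cerebellum, Eng at 0.05 ± 0.07, Itm2a at 0.10 ± 0.07, Slco1a4 at 0.07 ± 0.06, Cldn5 at -0.10 ± 0.10 and Kdr at -0.13 ± 0.10. The 95% interval for Eng was -0.11 to 0.21 there and -0.53 to -0.20 in the hippocampus. The test of its difference between tissues did not pass (edgeR adjusted p = 0.701). Without cerebellum knockout replicate 3, the library low in choroid plexus RNA, 25 of 39 members lay above 0 at a median of 0.04. Beside them, 9 of 11 microglia markers lay above 0 (median 0.13), 6 of 7 oligodendrocyte markers (0.13) and 5 of 8 activity genes (0.53), and 5 tested brainstem markers all did (2.68). Blood markers lay above 0 in 6 of 6 cases tested (0.11). Choroid plexus markers lay below 0 in 10 of 10 cases (-1.08) and ependyma markers in 4 of 5 (-0.19). The part of these cells and of brainstem RNA in the vessel values was not tested.

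**Figure D4:**
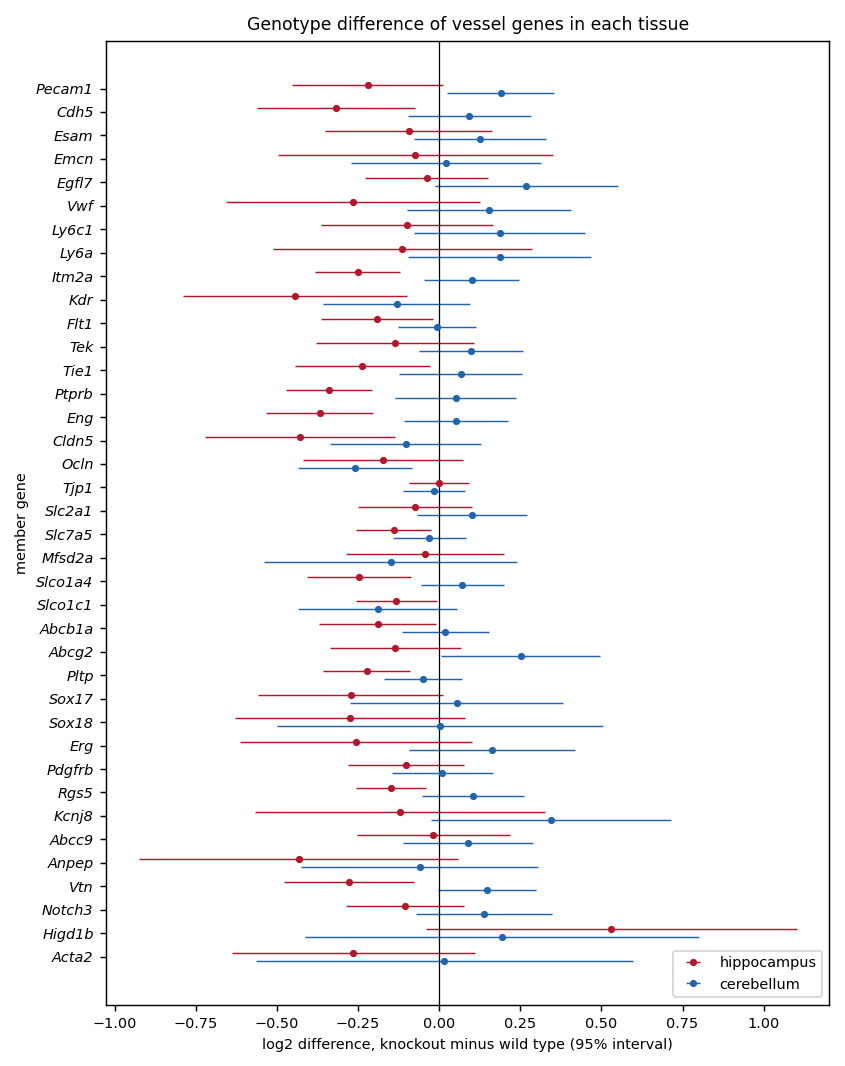
Log2 difference between knockout and wild type (horizontal axis, with 95% intervals from the edgeR fit) for 38 vessel genes in hippocampus (red) and cerebellum (blue). Red points lie left of 0 for 37 genes and blue points right of 0 for 28.

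Taking the tissues side by side, 27 genes were lower in the knockout hippocampus and higher in the knockout cerebellum, 10 lower in both and 1 higher in both. Since 37 of 38 lay below 0 in the hippocampus, this split restates the cerebellar count of 28 above and 10 below. The same split over all genes was not counted. Whether the genotype difference itself differed between tissues was tested over all 12 libraries. By edgeR 2 of 19027 genes were called (0.0105%), none of them a vessel gene, and DESeq2 and limma-voom also called 0 members. For 33 of 39 members the hippocampal difference was the lower one, where 50.8% of all genes were, with a median difference of -0.28 against -0.0028 over all genes. At an unadjusted p under 0.05 stood 10 members, all with the lower value in the hippocampus, against 3.08% of all genes. Markers of other cells leaned the same way, with 14 of 15 meninges and fibroblast markers below 0 at a median of -0.66, 6 of 7 perivascular macrophage markers (-0.19), 5 of 6 blood markers (-0.22), 7 of 7 oligodendrocyte markers (-0.13) and 10 of 11 microglia markers (-0.10), while 9 of 10 choroid plexus markers lay above 0 (0.97). None of them was called by edgeR, and their part in the vessel values was not tested.

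Eng had the smallest p, with a genotype difference lower by 0.42 ± 0.10 (log2) in the hippocampus than in the cerebellum, where its knockouts held 22.6, 20.9 and 22.6 CPM and wild type 22.1, 21.9 and 19.9 CPM (edgeR adjusted p = 0.701). For Itm2a, with cerebellar levels of 50.5, 47.2 and 50.7 CPM in knockouts and 49.3, 47.6 and 42.3 CPM in wild type, the difference between tissues was -0.35 ± 0.09. Ptprb held 57.8, 59.7 and 65.9 against 64.5, 51.4 and 62.4 CPM in the cerebellum, and its difference between tissues was -0.39 ± 0.12. In each of these 3 genes the hippocampal groups separated and the cerebellar groups overlapped, but the test of the difference did not pass across all genes.

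The tissue comparison asked where vessel genes were more abundant. Hippocampus and cerebellum libraries also differ in a token of their column headers, L1 for every hippocampus and L4 for every cerebellum library, so the tissue and whatever that token marks cannot be told apart. In wild-type animals 66.1% of all 18128 genes were called between the tissues by edgeR, and 15 of 39 members were, 5 higher and 10 lower in the hippocampus (33.1% and 33.0% of all genes). In knockout animals 64.1% of 18200 genes were called, and 27 of 38 members, 2 higher and 25 lower (31.6% and 32.5% of all genes). The members' median was -0.10 in wild type and -0.40 in knockouts, beside -0.02 and -0.03 over all genes. In wild type the 29 endothelial members had a median of 0.0009, with 15 above 0 and 14 below. The 10 mural members had a median of -0.27, with 9 below 0. In knockouts the medians were -0.38 over 29 endothelial and -0.47 over 9 mural members. The wild-type median over all members moved with single libraries, to -0.05 without hippocampus replicate 1 and -0.15 without hippocampus replicate 3, and stayed below 0 throughout. Without cerebellum replicate 3, the members called higher were 3 rather than 5 and those called lower were 14 rather than 10. Over all alternatives the members called lower ran from 8 to 14 in wild type and from 24 to 27 in knockouts.

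Lower in the hippocampus in both genotypes were 10 genes, Abcb1a, Abcc9, Emcn, Ly6a, Ly6c1, Notch3, Ocln, Pltp, Slc7a5 and Vtn. They make 100% of the wild-type list and 40% of the knockout list. The same overlap over all genes, of which 66.1% were called in wild type and 64.1% in knockouts, was not counted. These shares are therefore not a trait of the members. The genotypes' tissue gaps differ by the same quantity that was tested above over 12 libraries, where no member was called.

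Pltp showed the widest gap, at 58.3, 52.1 and 60.6 CPM in the wild-type hippocampus against 118, 120 and 113 CPM in the cerebellum (48.9%, log2 -1.03 ± 0.06, edgeR adjusted p = 5.57e-09). In knockouts it held 48.2, 47.7 and 49.4 against 106, 119 and 113 CPM (-1.22 ± 0.05). Ocln followed at 17.7, 16.6 and 13.2 against 29.7, 33.4 and 29.8 CPM in wild type (-0.96 ± 0.10), and at 14.7, 14.1 and 13.1 against 23.5, 28.1 and 25.6 CPM in knockouts (-0.88 ± 0.09). Neither gene came near overlapping between tissues in either genotype.

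Emcn held 3.55, 2.93 and 3.81 against 4.51, 5.71 and 5.51 CPM in wild type (-0.61 ± 0.16) and 3.74, 3.35 and 2.64 against 5.36, 5.585 and 5.01 CPM in knockouts (-0.72 ± 0.17), apart in both. For Ly6a the wild-type levels of 8.99, 12.2 and 9.68 against 13.7, 16.2 and 11.8 CPM overlapped (-0.42 ± 0.14), and the knockout levels of 9.18, 12.1 and 7.07 against 15.7, 17.5 and 14 CPM did not (-0.73 ± 0.18). The wild-type call of Ly6a was lost without hippocampus replicate 1 (adjusted p = 0.0812), hippocampus replicate 3 (0.0637) or cerebellum replicate 2 (0.0842).

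Slc7a5 held 81.3, 74.8 and 74.4 CPM in the wild-type hippocampus and 107, 102 and 101 CPM in the cerebellum, without overlap (-0.42 ± 0.05), and 66.1, 70.8 and 70.4 against 101, 94.7 and 105 CPM in knockouts (-0.54 ± 0.05). Notch3 held 21.1, 21.6 and 21.2 against 28.7, 30.1 and 24.8 CPM, also apart (-0.38 ± 0.08), and 17.8, 21.4 and 19.6 against 32.3, 26.7 and 32.5 CPM in knockouts (-0.64 ± 0.10). The gap of Vtn was -0.24 ± 0.09 in wild type, where the groups overlapped, and -0.68 ± 0.07 in knockouts, where they lay well apart at 50.8, 53.2 and 59.9 against 85.9, 83.9 and 92.1 CPM.

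Higher in the hippocampus in both genotypes were Tjp1 and Mfsd2a. Tjp1 held 134, 129 and 130 CPM in the wild-type hippocampus and 98, 92.8 and 96.9 CPM in the cerebellum (137%, 0.46 ± 0.05), and 132, 127 and 130.5 against 94, 93.55 and 95.6 CPM in knockouts (0.46 ± 0.04). Mfsd2a, which carries lipids with docosahexaenoic acid into the brain, held 13.8, 15.2 and 13.5 against 10.5, 13.3 and 8.10 CPM (134%, 0.42 ± 0.15), and 13.01, 15.75 and 12.2 against 9.18, 11.1 and 8.36 CPM in knockouts (0.51 ± 0.14). The tissues did not overlap for either gene in either genotype. Its wild-type call was lost without hippocampus replicate 2 (adjusted p = 0.0802), cerebellum replicate 1 (0.0608) or cerebellum replicate 3 (0.0914), where the log2 difference was 0.25. Egfl7 (0.58 ± 0.10), Abcg2 (0.46 ± 0.11) and Pdgfrb (0.15 ± 0.06) were called higher in wild type and not in knockouts.

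The 15 genes called lower in knockouts and not in wild type were Acta2, Anpep, Cdh5, Eng, Erg, Flt1, Itm2a, Kcnj8, Pecam1, Ptprb, Rgs5, Slc2a1, Slco1a4, Tie1 and Vwf. Of these Itm2a went from -0.03 ± 0.07 in wild type to -0.39 ± 0.05 in knockouts, Ptprb from 0.06 ± 0.08 to -0.34 ± 0.07 and Eng from 0.14 ± 0.08 to -0.30 ± 0.07. Others were lower in wild type too but short of a call, as Slc2a1 (-0.19 ± 0.08, edgeR adjusted p = 0.0567) and Slco1a4 (-0.14 ± 0.06, 0.0700). With the animal as block, 12 rather than 10 members were called lower in wild type. Beside the vessel genes, microglia markers ran the opposite way and were higher in the hippocampus in all 11 cases, with medians of 1.42 in wild type and 1.34 in knockouts.

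Markers of other cells near vessels lay mostly below 0. Of the meninges and fibroblast markers 12 of 14 tested were called lower in wild type (median log2 difference -0.81) and 12 of 15 in knockouts (-1.54). The choroid plexus markers lay below 0 in 10 of 10 cases in both genotypes, with medians of -4.66 and -4.35. Blood markers lay below 0 in 5 of 5 cases in each (-1.02 and -1.14), and perivascular macrophage markers in 6 of 6 in wild type (-0.38) and 5 of 5 in knockouts (-0.58). The part of these cells in the tissue values of the vessel genes was not tested.

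**Figure D5:**
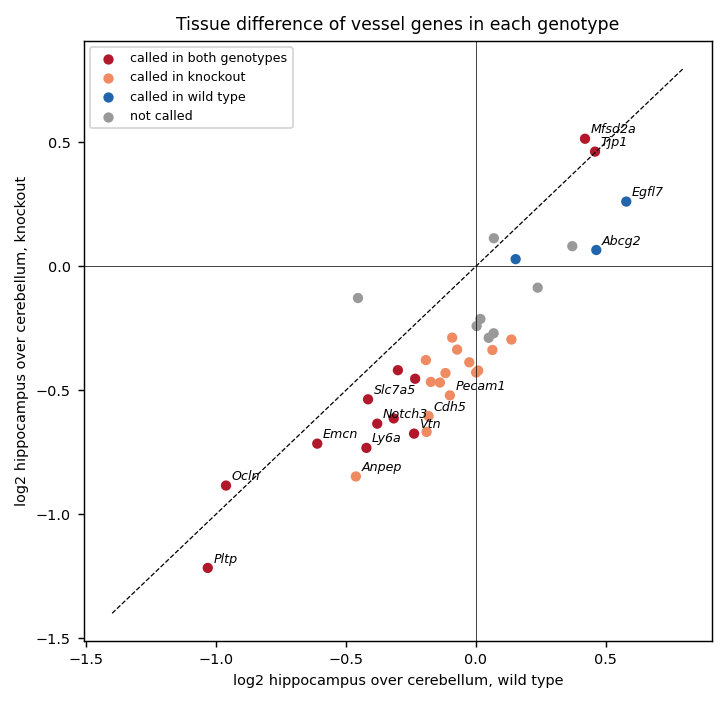
Log2 ratio of hippocampus to cerebellum for 38 vessel genes in wild type (horizontal axis) and knockout (vertical axis), coloured by the genotypes in which the gene was called, with a dashed line of equal ratios. Pltp and Ocln lie farthest to the lower left, Tjp1 and Mfsd2a to the upper right, and 27 genes are called in knockouts against 15 in wild type.

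Other genes of the vascular pathways, 109 in 6 lists, were read for the same comparisons. In the knockout hippocampus 83 of 107 lay below 0 at a median of -0.10, edgeR called 0, and at an unadjusted p under 0.05 stood 17 that were lower, where 1.77% of all genes were, and 1 that was higher, where 454 of 17693 genes were. In the cerebellum 63 of 109 lay above 0 at a median of 0.03, edgeR called 0, and 7 were higher (3.85% of all genes) and 5 lower (2.92%) at that level. DESeq2 and limma-voom called 0 of them in either tissue.

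Of the 17 ligands 13 lay below 0 in the hippocampus (median -0.04). Vegfa, which signals through Kdr, was the exception at the top, at 84.8, 76.0 and 71.5 CPM in knockouts and 66.1, 68.0 and 71.0 CPM in wild type, higher without overlap (0.19 ± 0.06, edgeR adjusted p = 0.995). The Notch ligand gene Jag1 held 10.4, 10.4 and 10.7 against 12.7, 14.4 and 10.9 CPM (-0.26 ± 0.11), and Tgfb1, which binds receptor complexes that include endoglin, differed by -0.32 ± 0.16.

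The 19 other receptors tested had a median of -0.12. Flt4, a receptor of vascular endothelial growth factor C, held 2.87, 4.05 and 3.09 CPM in knockouts against 5.29, 4.68 and 5.07 CPM in wild type, without overlap (-0.57 ± 0.17). The bone morphogenetic protein receptor genes Acvrl1 (-0.27 ± 0.11) and Bmpr2 (-0.17 ± 0.05), which work with endoglin, did not overlap between groups either.

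Among 12 Wnt targets and barrier regulators, with a median of -0.13, the Wnt target Apcdd1 held 28.6, 33.7 and 31.7 against 35.9, 36.3 and 40.0 CPM (-0.24 ± 0.07), and the forkhead genes Foxc1 and Foxf2 differed by -0.47 ± 0.20 and -0.30 ± 0.19. In the list of 33 other endothelial genes 26 lay below 0 (median -0.13), led by the lectin-like receptor gene Cd93 at 5.65, 7.08 and 6.76 against 8.64, 8.56 and 9.99 CPM (-0.46 ± 0.13), the ETS factor gene Ets1 at -0.30 ± 0.08 and the caveolin gene Cav1 at -0.33 ± 0.12. None of these 3 overlapped between groups.

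Of 16 other mural genes 12 lay below 0 (median -0.11), with the pericyte gene Atp13a5 at -0.24 ± 0.09, smooth muscle myosin Myh11 at -0.48 ± 0.22 and the laminin gene Lamc3 at -0.20 ± 0.14. Of 10 basement membrane genes 8 lay below 0 (median -0.08), with perlecan (Hspg2) at -0.33 ± 0.11, Nid1 at -0.39 ± 0.17 and Lamb2 at -0.14 ± 0.07. Fibroblasts and glia make some of these matrix genes too.

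Between tissues the pathway genes ranged from -3.97 to 3.09 (log2) in wild type and the members from -1.03 to 0.58, with 23 called higher and 37 lower of 107 in wild type and 18 higher and 46 lower of 109 in knockouts. The shares of all genes called were 33.1% higher and 33.0% lower in wild type, and 31.6% and 32.5% in knockouts. The Wnt ligands that act on brain vessels divided: Wnt7a was lower in the hippocampus (log2 -2.09 ± 0.07 in wild type) and Wnt7b higher (2.02 ± 0.07). Nrp1 and Nrp2, co-receptors that neurons also carry, were higher in the hippocampus by 3.09 ± 0.07 and 2.77 ± 0.08, and the leptin receptor gene Lepr was lower (-1.002 ± 0.18). Sema3a, a ligand of Nrp1, was lower (-2.01 ± 0.15).

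In the remaining lists Nkd1 (-0.47 ± 0.10) was lower in the wild-type hippocampus and Apcdd1 (0.55 ± 0.07) higher. The tricellular junction gene Marveld2 was lower by 3.97 ± 0.17 on the log2 scale, at 0.947, 0.837 and 1.57 CPM against 17.4, 18.8 and 16.8 CPM, and the carbonic anhydrase gene Car4 was lower (-1.92 ± 0.06) while Cd34 was higher (1.45 ± 0.08). Desmin (Des) was lower (-2.81 ± 0.17), as was the caldesmon gene Cald1 (-0.46 ± 0.07), and Cspg4, which oligodendrocyte precursors also make, was higher (1.18 ± 0.08). The collagen IV genes Col4a1 and Col4a2, neighbours that form the core of the basement membrane, were higher by 1.72 ± 0.09 and 2.07 ± 0.09, and Nid1 was lower (-1.38 ± 0.10). Each of these 17 genes was called in the same direction in knockouts.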

How the data were processed

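Gene counts of 12 libraries were used, deposited by the authors as raw counts per gene in 1 table per tissue. Per the submitters' processing notes, Trimmomatic 0.39, STAR 2.7.10 and featureCounts 2.0.3 were used with mm10 and GRCm38. Per the labels' protocols, libraries were poly(A)-selected and strand-specific. Which annotation release and which strand setting were used for counting was not given in the sources used here. Symbols, positions and exon lengths came from GENCODE M21 on GRCm38, which matched 54409 of 54446 rows.

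Genes of low count were removed by filterByExpr (at least 10 counts, 15 in total), libraries were scaled by TMM, and two-sided quasi-likelihood tests were made with edgeR 4.0.16 under R 4.3.3, with Benjamini-Hochberg adjustment over all genes tested and calls at an adjusted p under 0.05. Genotypes were compared within each tissue (6 libraries), tissues within each genotype (6 libraries), and the difference of the genotype effects over 12. SE is the size of the log2 difference over the square root of F, and intervals are 95%. DESeq2 1.42.0 and limma 3.58.1 (voom) were alternatives. The fits were tested on simulated data. Tables and figures used Python 3.11.15, pandas 2.3.3, numpy 2.4.6 and matplotlib 3.10.9.

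The tissue tests as reported hold no block. The labels give 1 animal number to a hippocampus and a cerebellum library, which pairs them, and a fit with the animal as block was run as an alternative. Deviations of libraries of the same animal from group means correlated at 0.007 to 0.081. Replicates of a group differed by a chi-square per gene of 3.91 to 11.6, so none was a duplicate.

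The members and lists were chosen with earlier results of these data known. Values in each library of the comparison are given for the 10, 5 and 3 members of smallest unadjusted p in the hippocampus, the cerebellum and the difference, for up to 6 of largest tissue fold in each direction among those called in both genotypes, for the member of highest level per kilobase in each role, and for further members as examples. From each pathway list up to 3 genes by hippocampal p and 3 by tissue fold are named, of which 1 is not reported here. Eng, Pltp, Slc7a5, Notch3, Cdh5 and Egfl7 overlap other annotated genes.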

Additional observations from a re-analysis of the deposited data

How the results depend on the processing

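The alternatives were size factors by RLE, no filter on low counts, DESeq2, limma-voom, a block, a fit of all 12 libraries, the meninges level as covariate and leaving out each library. The number of genes called moved most. In the hippocampus, where edgeR called 0, it was 77 with no filter, 4 by DESeq2, 2 with the replicate block and 0 to 2 with a library left out (2 without knockout replicate 3). The members called there were 5 with no filter (Kdr, Ptprb, Eng, Cldn5 and Vtn) and 1 by DESeq2. In the cerebellum, with 2 genes called, the other counts were 417 with no filter, 38 by DESeq2, 36 with the replicate block, 4 in the fit of all 12 libraries and 2 to 33 with a library left out (33 without knockout replicate 3, 4 without wild-type replicate 3). With no filter 1 member was called there, Ocln (adjusted p = 0.0461). For the difference between tissues, with 2 genes called, the counts were 275 with no filter, 11 by DESeq2 and 2 to 44 with a library left out (44 without cerebellum knockout replicate 3, 4 without hippocampus wild-type replicate 1). Members called there were 3 with no filter (Itm2a, Ptprb and Vtn). The fit with no filter tested 31868 rather than 17693 genes in the hippocampus. The cause of these moves was not tested.

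Replicate numbers were checked as pairs within each tissue. The deviations of same-numbered libraries correlated at -0.003, 0.004 and 0.052 in the hippocampus and at 0.095, 0.176 and 0.281 in the cerebellum, where every library correlated best with its own number, a hint from the data and not the design. The block called 0 members in either tissue, and in the cerebellum 10 rather than 3 stood at an unadjusted p under 0.05. Without cerebellum wild-type replicate 2 that number was 11. With the animal as block, the members called between tissues were 17 rather than 15 in wild type and 28 rather than 27 in knockouts, and 0 for the difference. No other call of a named member was changed by it.

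The members' median log2 difference kept its sign in every alternative run, from -0.22 to -0.14 in the hippocampus, from 0.03 to 0.10 in the cerebellum and from -0.33 to -0.21 for the difference between tissues. No named value reversed. Genes near the filter, such as Tagln at 0.141 to 0.593 CPM and Higd1b at 1.03 to 2.48 CPM, are limited by their counts.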
